A study of Mus musculus with 3 samples.

Results

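Distal regions inside long protein-coding genes were taken from the H3K4me1 enriched regions of cytokine treated mouse islets. A region was a member if it contained no transcription start site (TSS) of a protein-coding gene, if its midpoint lay over 20 kb and up to 100 kb from the nearest such TSS, and if the midpoint fell inside the span of a protein-coding gene, called its host. On chromosomes 1 to 19, 11029 of 65124 regions met this rule, which is 16.9% (95% exact binomial interval 16.6 to 17.2), and the whole list held 65709 regions. The 2 limits of distance cut through a continuous series: 433 regions inside genes lay within 1 kb below the 20 kb limit and 411 within 1 kb above it, with median widths of 1200 and 1400 bp, and the 100 kb limit had 41 regions on its near side and 47 on its far side, with median widths of 1000 and 1200 bp.

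The study asked how inflammatory cytokines change transcription and H3K4me1 in pancreatic islets. Islets were isolated from mice of both sexes that the labels give as CD1, aged 8 to 12 weeks, and were cultured for 4 days with IL-1β at 0.25 ng/ml, TNFα at 0.16 ng/ml and IFNγ at 1.6 ng/ml. The study's methods name the strain as ICR with a narrower range of ages, and pool the DNA of several ChIPs into 1 library, so that the condition has no replicate. The list gives the position of each region and no height, count or p-value, and whether it precedes the removal of weakly enriched loci in the methods is not stated, so the depth is unknown, the intervals printed here cover counting error only, and no difference was tested across replicates.

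Monomethylation of lysine 4 of histone H3 marks enhancers, both active and poised, and the flanks of active promoters. Enhancers are short stretches of DNA that bind transcription factors and can act on a promoter over long distances, and many of them lie in the introns of genes. The gene that holds an enhancer is often, but not always, the gene it acts on, and the list does not say which promoter a region contacts.

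The stretches below are 100 bp each from the centre of members in genes of hormone secretion, islet transcription and cytokine signalling, and they show what a region of this kind looks like as sequence. They were read from the mm9 reference on its plus strand, from hosts whose central window held a motif searched here, and the capitals mark that motif, chosen from those listed for islet or cytokine factors; Irf2 also holds the FOXA core and Glis3 the IRF pattern, both left in lower case. The granule enzyme carboxypeptidase E (Cpe) held a TAATTA homeodomain core in the centre of an 18200 bp member, 45.5 kb from the nearest TSS. Rapgef4, which encodes the cAMP sensor Epac2, held the reverse complement of the FOXA core TGTTTAC. Foxo1 and Glis3, transcription factor genes, held the MAF half-site TGCTGAC on the minus strand, and the interferon regulatory factor gene Irf2 and the repressor gene Bach2 held the spaced GAAANNGAA of IRF factors on the minus strand.
Cpe, chr8:67126369-67126468: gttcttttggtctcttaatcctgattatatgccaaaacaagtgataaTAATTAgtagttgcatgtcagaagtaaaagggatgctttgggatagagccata
Rapgef4, chr2:71860601-71860700: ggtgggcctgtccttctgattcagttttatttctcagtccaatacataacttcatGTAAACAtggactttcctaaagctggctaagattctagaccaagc
Foxo1, chr3:52124969-52125068: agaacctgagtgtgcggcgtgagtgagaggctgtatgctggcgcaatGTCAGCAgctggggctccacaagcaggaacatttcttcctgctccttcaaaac
Glis3, chr19:28699601-28699700: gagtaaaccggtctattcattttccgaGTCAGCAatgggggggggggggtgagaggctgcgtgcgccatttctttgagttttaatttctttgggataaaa
Irf2, chr8:47915650-47915749: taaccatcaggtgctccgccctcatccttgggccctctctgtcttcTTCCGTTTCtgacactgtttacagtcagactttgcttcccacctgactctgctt
Bach2, chr4:32390508-32390607: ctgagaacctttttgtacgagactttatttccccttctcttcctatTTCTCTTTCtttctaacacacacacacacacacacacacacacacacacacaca

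The labelled tissue was checked against markers of islets and of other cells. A region covered a TSS of 2 of 14 islet endocrine markers and lay within 2 kb of a TSS of 10 of 14; Gcg, Sst, Iapp and Isl1 had none within 2 kb. Over all 21418 protein-coding genes the shares were 40.6% and 64.1%, so that the islet markers were below other genes by the first count and near them by the second. The leukocyte markers had 1 of 7 by either measure (Cd74), the endothelial markers 2 of 5, the stromal markers 3 of 5, the acinar and duct markers 2 of 6 and the neuronal or glial markers 2 of 3, where Rbfox3, a splicing factor gene of neurons, hosted 13 members. Of 4 genes not expressed in the pancreas, 1 was covered and 2 had a region within 2 kb. The 2 kb measure was added after the first had been seen. Islets hold several cell types, and the cells that carry a region cannot be told apart in a list from bulk tissue.

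Members were denser than regions at the same distance between genes. Eligible sequence, meaning all sequence on chromosomes 1 to 19 whose position met the same limits, came to 326 Mb inside genes and held 33.8 members per Mb (95% Poisson interval 33.2 to 34.5). Between genes, 431 Mb at the same distances held 8536 regions, or 19.8 per Mb (19.4 to 20.2). Without unsequenced bases, 0.438% of the first and 0.743% of the second, the values were 33.96 and 19.96 per Mb. Regions covered 7.63% of the eligible sequence inside genes and 3.28% of that between genes. Closer to a TSS, over 2 and up to 20 kb, sequence inside genes held 39.8 regions per Mb and 11.5% of it was covered.

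The difference between sequence inside and outside genes was present in each of 8 distance classes of 10 kb. Inside genes the density went from 36.6 per Mb (35.3 to 37.8) at 20 to 30 kb to 28.1 (25.8 to 30.5) at 80 to 90 kb and 30.7 (28.1 to 33.5) in the last class. Between genes it went from 22.0 per Mb to 16.3. Beyond 100 kb, which the rule leaves out, the values were 20.8 per Mb inside genes and 8.37 per Mb between them. Among chromosomes, the members ranged from 29.7 per Mb on chromosome 9 to 39.7 on chromosome 19.

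**Figure D1:**
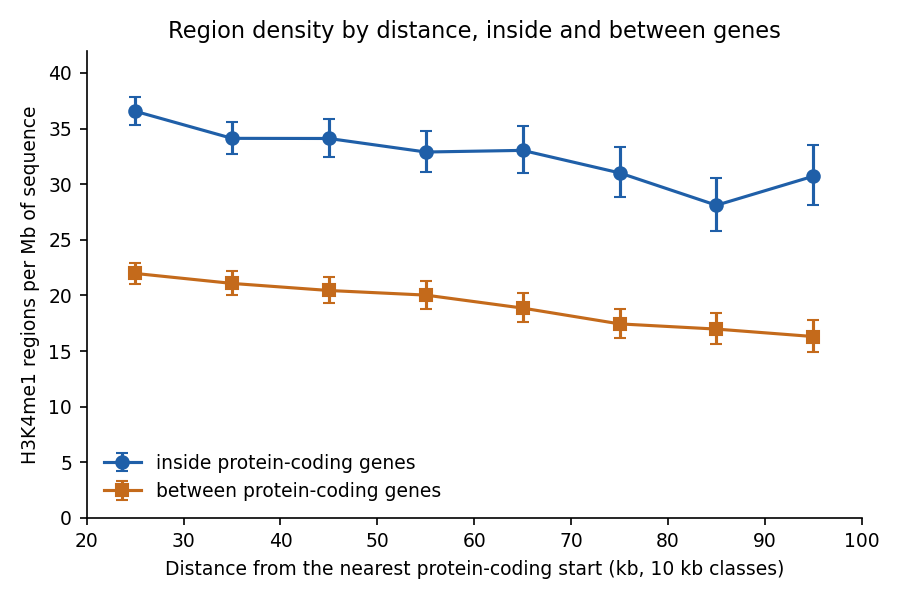
H3K4me1 regions per Mb of sequence (vertical axis) against distance from the nearest protein-coding TSS in classes of 10 kb, for sequence inside protein-coding genes (circles, the members) and between them (squares), with 95% Poisson intervals. The circles lie above the squares in all 8 classes, with no overlap of the intervals.

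Members were mostly short, with a minority of long blocks. The median width was 1200 bp (quartiles 600 and 2400), and 334 members (3.03%) were a single bin of 200 bp, the grid on which the regions were called. At least 1000 bp was reached by 65.1% of members and by 59.4% of distal regions between genes. Widths over 10 kb were found for 279 members (2.53%, 2.24 to 2.84) in 212 hosts, and these held 19.96% of the 24.9 Mb that members covered. Distal regions between genes passed 10 kb in 51 cases (0.597%, 0.445 to 0.785), whereas regions inside genes at 2 to 20 kb did so in 2.55%.

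The 6 widest members lay in genes with roles in signalling, transport and transcription. Rap1gap2, which switches off the small GTPase Rap1, held a member of 64.0 kb. Abcc8, which encodes the sulfonylurea receptor subunit of the β-cell KATP channel, held 1 member of 57.8 kb, and 98.5% of its 39.8 kb of eligible sequence was covered. Here and below, the covered share of a gene counts every region on its eligible sequence, so that it can include edges of regions that are not members. The taurine transporter gene Slc6a6 held 1 of 55 kb, the G protein subunit gene Gng12 1 of 52.6 kb, the coactivator gene Zmiz1 1 of 52.2 kb and the kinase gene Dyrk1a 1 of 48.2 kb. For such blocks the midpoint is far from the TSS while an edge is near it: the nearest edge lay 1.40 kb from a TSS in Abcc8, 1.54 kb in Slc6a6, 1.56 kb in Zmiz1 and 0.487 kb in Dyrk1a, but 14.3 kb in Rap1gap2 and 39.7 kb in Gng12. Of the 279 members over 10 kb, 94 had an edge within 20 kb of a TSS and 8 within 2 kb. Over all members this was 462 within 20 kb.

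Within their hosts, members lay mainly in introns and more densely towards the 5′ end. The midpoint was in an intron of the host for 97.0% (96.7 to 97.3) and in an exon for 2.99%; introns make up 96.0% of the eligible sequence, with 34.2 members per Mb against 25.6 in exons. Some member sequence overlapped an exon in 14.3% and coding sequence in 12.5%. By the longest transcript of the host, the first intron held 28.7% of members at 44.6 per Mb, the second 19.1% at 42.9 per Mb and later introns 48.8% at 28.0 per Mb. With the gene span cut into 3 equal parts from its 5′ end, the densities were 37.8, 36.4 and 28.0 per Mb.

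Distance from a TSS was taken into account after these values had been seen. At 20 to 40 kb the first intron held 49.1 members per Mb (46.8 to 51.5), the second 45.4 (42.7 to 48.3) and later introns 28.2 (27.1 to 29.3). At 60 to 100 kb the values were 37.3 (34.5 to 40.3), 38.1 (34.9 to 41.5) and 27.6 (26.2 to 29.0). The later introns were therefore lower within each class, including 40 to 60 kb, where they held 28.3 per Mb against 42.6 and 43.6.

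The nearest protein-coding TSS was the host's own for 9177 members (83.2%, 82.5 to 83.9). For the other 1852 it belonged to 1 of 909 other genes, at a median of 43.7 kb against 86.6 kb to the nearest TSS of the host, and the host's TSS was over 100 kb away for 770 of them. By the rule of nearest TSS these 1852 members would be given to a neighbour although they lie in the host. In Cacna2d1, an auxiliary subunit gene of voltage-gated calcium channels, 14 of 16 members were nearest to the predicted gene Gm17320. In the forkhead gene Foxn3, 13 members were nearest to 3300002A11Rik. The midpoint lay downstream of the nearest TSS in 70.5% of members.

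Members came in runs. Consecutive members of a host were separated by a median gap of 6.6 kb (quartiles 2.8 and 17.4 kb) over 8050 gaps, and 42.2% of the gaps were up to 5 kb. Another region lay within 5 kb of 53.7% of members (52.8 to 54.6), of 37.3% of distal regions between genes and of 65.8% of regions inside genes at 2 to 20 kb.

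Members were spread over many genes. Eligible sequence was found in 6071 of 21418 protein-coding genes, and 2979 of these hosted at least 1 member, a background of 49.1%. With at least 100 kb of eligible sequence the share was 89.6%, or 804 of 897 genes. A single member was found in 1052 hosts, 2 to 4 in 1175 and 5 or more in 752; the 242 hosts with 10 or more held 3464 members (31.4%). The median host was 111.7 kb long, against 72.6 kb for genes with eligible sequence and 15.5 kb for all protein-coding genes. Across the 6071 genes the number of members followed the eligible length with a Spearman correlation of 0.63, a description of genes that share 1 library, whereas the density in the 897 longer genes did not rise with length (Spearman −0.12).

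By gene length, density was highest in the middle of the range. Hosts and other genes of up to 50 kb held 25.5 members per Mb, those of 100 to 200 kb 37.7 (36.5 to 39.0) and those of 200 to 400 kb 37.6 (36.3 to 39.0). The 79 genes over 800 kb held 17.1 per Mb (15.6 to 18.6), although 88.6% of them hosted at least 1 member.

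**Figure D2:**
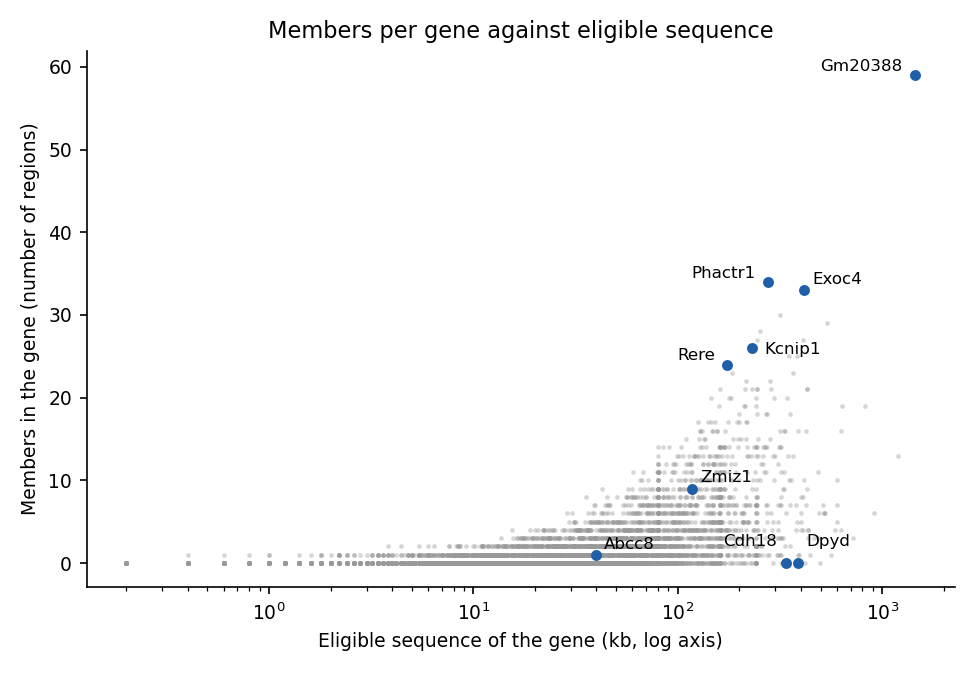
Number of members (vertical axis) against eligible sequence in kb (horizontal log axis) for each of 6071 protein-coding genes, with named genes in blue. Phactr1 has 34 members in 276.6 kb, while Dpyd and Cdh18 have 0 in 387.2 and 337.2 kb.

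The 20 hosts with the most members included genes of the cytoskeleton, of vesicle docking, of ion channels and of transcription. Ties in number went to the host with the longer length covered by members. The first by number was the predicted gene Gm20388 with 59 members, a span of 4435 kb on chromosome 8 that rests on 1 transcript and contains 72 other protein-coding genes; for 0 of its members was the nearest TSS its own. Phactr1, a regulator of actin and protein phosphatase 1, had 34 members in 276.6 kb (123 per Mb), and 35.3% of this sequence was covered. The exocyst subunit genes Exoc4 and Exoc6b, which tether secretory vesicles to the plasma membrane, had 33 and 30. Arfip1 had 29 over a span of 1391 kb, of which its second-longest transcript spans 86.4 kb, and 11 of the 29 were nearest to its own TSS.

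Transcription factor and cofactor genes followed. Glis3, required for β-cell development and insulin transcription, had 28 members of 200 to 18400 bp, and 41.1% of its 251.2 kb was covered. The Notch coactivator gene Maml3 had 27 in 243 kb (56.3% covered), and Zbtb20, a zinc finger repressor gene, had 27 in 407.6 kb (13.1% covered). The corepressor gene Rere had 24 in 175 kb, or 137 per Mb, which was rank 2 among the 897 genes, with members of up to 25.8 kb. The calmodulin-binding transcription activator gene Camta1 had 21 and the RNA-binding protein gene Msi2 had 21.

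Channel and signalling genes made up much of the rest. Kcnmb2 and Kcnma1, the β2 and α subunits of the large-conductance calcium-activated potassium channel, each had 23, at 125 and 63.0 per Mb. The potassium channel-interacting protein gene Kcnip1 had 26 (40.5% covered) and the calcium channel β subunit gene Cacnb2 had 22 (19.02% covered). Of the 26 in Kcnip1, 13 were nearest to its own TSS. The kinase genes Mast4 and Prkce had 25 and 21, the GTPase-activating gene Arhgap26 25, the polarity gene Pard3 22 and the coactivator gene Snd1 21.

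**Figure D3:**
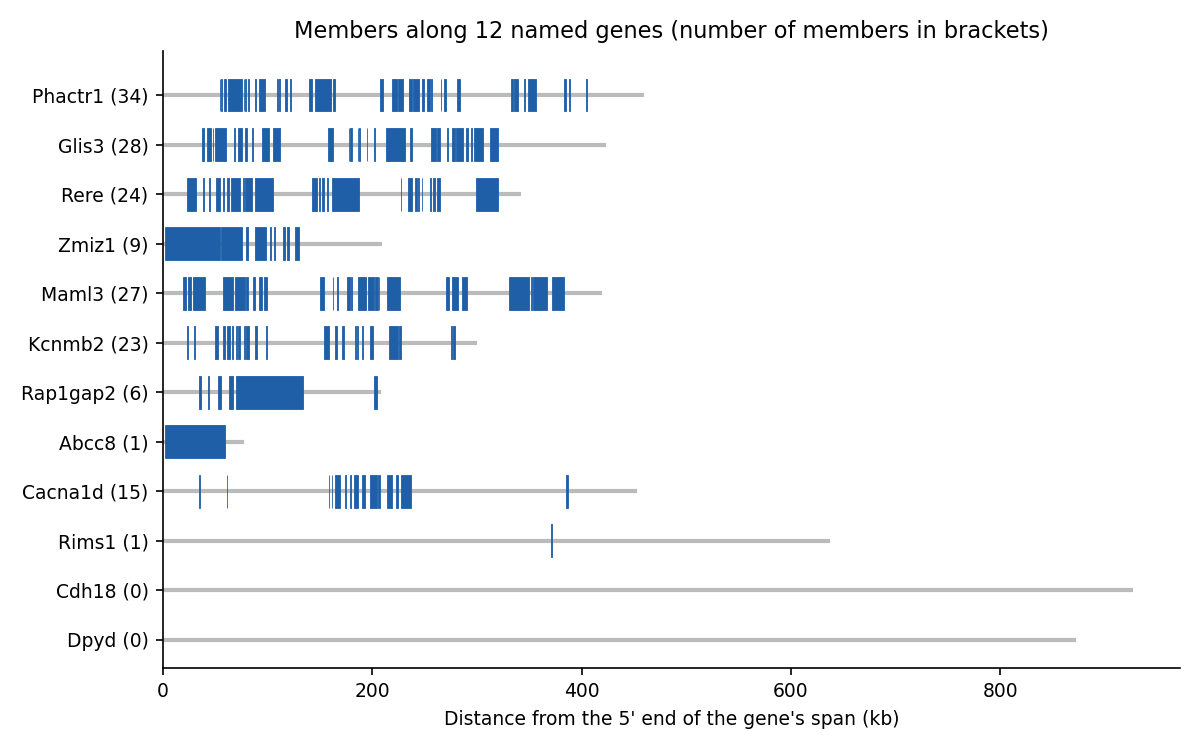
Members (blue bars, drawn to scale, at least 0.2 kb wide) along 12 named genes (grey lines, the gene span), by distance in kb from the 5′ end of the span, with the number of members in brackets. Rap1gap2, Abcc8 and Zmiz1 hold long blocks, Phactr1, Glis3, Rere and Maml3 hold runs of separate regions, and Cdh18 and Dpyd hold 0.

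Some hosts were marked over most of their eligible sequence. Among genes with at least 100 kb of it, the covered share was 86.5% in Gng12, 71.2% in Zmiz1, 62.6% in Rap1gap2, 62.2% in the RNA-binding protein gene Rbpms, 61.3% in the formin gene Daam1 and 56.7% in Rere, against a median of 3.44% over all 897. Gng12 reached its share with 4 members, 2 of them nearest to its own TSS, and Rere with 24. Long genes with 0 members stood at the other end: the cadherin gene Cdh18 (337.2 kb), the pyrimidine catabolism gene Dpyd (387.2 kb), the ubiquitin ligase gene March1 (494.8 kb) and the glycosyltransferase gene Mgat4c (320 kb). Dpyd and March1 had a region over a TSS, and Cdh18 and Mgat4c had none within 2 kb of one.

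A region at the gene's own start went with the density of members, depending on how the start was scored. Of the 897 genes with at least 100 kb eligible, 549 had a region over a TSS. They held 31.9 members per Mb (30.9 to 32.97) and the 348 without it 35.5 (34.0 to 37.1). Such intervals treat members of the same gene as independent. Across genes the medians were 26.1 per Mb (quartiles 9.78 and 51.2) and 29.2 (9.63 and 58.5), which overlap widely. With a region within 2 kb of a TSS, a measure added after the first had been seen, the 779 genes with it held 35.7 per Mb (34.7 to 36.7) and the 118 without it 14.3 (12.7 to 16.0). A member was hosted by 91.6% and 86.5% of genes with and without a covered TSS, and by 93.1% and 66.9% with and without a region within 2 kb. Over the 6071 genes with any eligible sequence, a covered TSS went with 33.4 members per Mb (32.5 to 34.2) and its absence with 33.6 (32.6 to 34.6), while 55.6% and 43.0% hosted a member. A region within 2 kb went with 37.1 per Mb in these genes and its absence with 15.0, while 55.9% and 25.4% hosted. The 2 measures thus differed in direction for the pooled density of the longer genes and not for the share that hosted. For the 2 kb measure the medians across the longer genes were 31.3 per Mb (quartiles 12.5 and 58.7) with it and 9.48 (0 and 21.0) without.

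The gene lists here and below were written with earlier results of these data known, so that their values are descriptions and no test. Insulin secretion and granule genes hosted members in 30 of 34 cases with eligible sequence, against 49.1% of all genes. Of these, 14 had at least 100 kb eligible, where the background is 89.6%, and 14 hosted. Their median density was 39.6 members per Mb, against 28.0 over the 897 genes, and 10 of the 14 were above that median. The calcium channel genes Cacna2d1 (16 members, 125 per Mb), Cacna1d (15, 60.9 per Mb) and Cacna1c (13, 43.5 per Mb) were among the 4 with the most members, with the active zone scaffold gene Rims2 (16, 50.7 per Mb). Its paralogue Rims1 had 1 member in 388.4 kb, the potassium channel gene Kcnq1 1 in 147.2 kb and the granule priming gene Cadps2 2 in 354.6 kb. Densities among the 14 longer genes ran from 2.57 to 125 per Mb. Cpe, shown above, had 4 members in 80 kb (74.8% covered), and Rapgef4 6 in 82.6 kb (41.9% covered).

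Islet transcription factor genes hosted members in 23 of 24 cases, against 49.1% of all genes. Those with at least 100 kb eligible did so in 15 of 15 cases, near the background of 89.6%. Their median was 58.9 per Mb, and 13 of the 15 lay above the median of the 897 genes. This list too was written with earlier results known, so that these values are no test of such genes. After Glis3 and Zbtb20, the most members were found in the teashirt gene Tshz2 (21, 73.4 per Mb) and the nuclear receptor gene Rora (20, 82.5 per Mb). The fewest per Mb among the 15 longer genes were in the SRY-box genes Sox5 (4 in 400 kb) and Sox6 (3 in 189 kb). Rfx3, a factor of cilia and endocrine differentiation, had 4 in 121.2 kb. Foxo1, which links insulin signalling to transcription, had 5 in 61.8 kb (72.2% covered). Among the 15 longer genes, 15 had a region within 2 kb of a TSS, as had 779 of all 897.

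Of the cytokine and inflammatory signalling genes, 27 of 53 had eligible sequence, 19 of them with members (70.4%, against 49.1% of all genes). Irf2, a repressor of interferon responses, had 9 members in 80 kb (38.8% covered). The stress kinase gene Map3k5 (Ask1) had 8 in 108.6 kb and the calcineurin-dependent factor gene Nfatc1 7 in 80 kb. Runx1 and Bach2, transcription factor genes of blood cells, had 5 each, in 162.6 and 207 kb. With 3 genes of at least 100 kb eligible, the median of 30.8 per Mb describes very few genes.

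Phosphodiesterase, adenylyl cyclase and kinase genes hosted in 35 of 37 cases, against 49.1% of all genes. Of the 23 with at least 100 kb eligible 22 hosted, near the background of 89.6%, and their median was 38.7 per Mb, with 13 above the overall median. Prkce (protein kinase C epsilon) had 21 members, the insulin-like growth factor receptor gene Igf1r 19 (89.0 per Mb, 37.1% covered) and Prkcb 18. Pde4d, which degrades cAMP, also had 19, but in 826.6 kb, or 23.0 per Mb. The diacylglycerol kinase gene Dgkb had 0 in 178.4 kb, the phospholipase gene Plce1 1 in 145.8 kb and Pde1a 2 in 175 kb.

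Cell adhesion and synaptic genes were listed for a length of over 0.5 Mb or for long introns. They held 17.2 members per Mb over the list, against 33.5 over all genes with eligible sequence. Length was then taken into account, a step added after the value of the list had been seen. Over 800 kb, 39 listed genes held 14.1 per Mb (12.3 to 16.2) and the 40 genes not listed 19.9 (17.7 to 22.2). The 40 include Gm20388 (59 members in 1451.8 kb) and Arfip1 (29 in 538 kb), whose spans hold other genes. The comparison was not run without these spans, so that it does not set the listed genes apart. At 400 to 800 kb, 7 listed genes held 37.7 (28.0 to 49.7) and 221 others 31.6 (30.04 to 33.3). Members were found in 44 of 51 listed genes, against 49.1% of all genes. They were found in 39 of the 43 with at least 100 kb eligible, near the background of 89.6%. The median of these 43 was 11.6 per Mb, and 11 of them were above the median of the 897 genes. A region lay within 2 kb of a TSS in 38 of the 43, near the 779 of 897. The most members were found in the teneurin gene Odz2 (19 in 639.2 kb), in Auts2 (18, 66.8 per Mb), in the axon guidance receptor gene Robo2 (17, 79.1 per Mb) and in Kcnip4 (16 in 627.4 kb). The receptor genes Erbb4 and Grm7 had 0 in 240 and 211.4 kb, as did Cdh18.

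Markers of other cells were scored in the same way. Leukocyte marker genes hosted in 7 of 15 cases (46.7%), near the 49.1% of all genes, with 20 members in Elmo1, an engulfment adaptor gene that is not restricted to leukocytes, 5 in Dock8, 4 in Dock10 and 3 in Ptprc (CD45); Emr1 (F4/80) had 0 in 104.8 kb. Endothelial and stromal markers hosted in 9 of 16 cases (56.3%), also near that share, with 12 members in Dach1 and 9 in Mecom. Exocrine and duct markers hosted in 5 of 6 cases (83.3%), but the list shares genes with the islet transcription factor list, Glis3 among them. Bicc1 had 10 members and the bicarbonate transporter gene Slc4a4 2. What other cells contribute to the members was not tested.

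**Figure D4:**
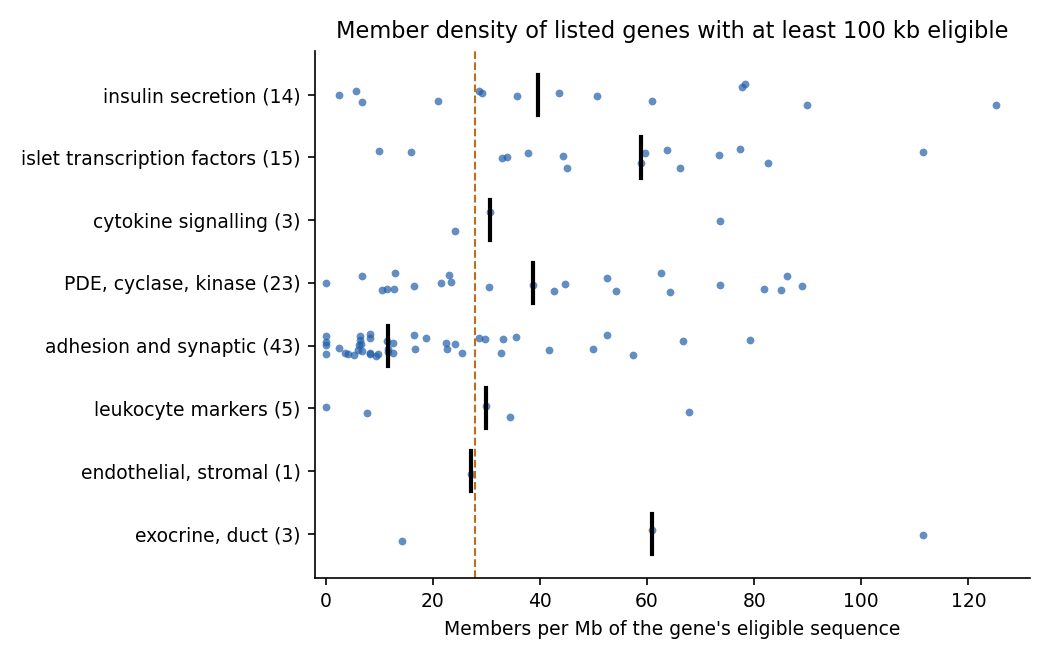
Members per Mb of a gene's eligible sequence (horizontal axis) for listed genes with at least 100 kb of it, 1 point a gene, by list (number of genes in brackets); black bars are list medians and the dashed line is the median of all 897 genes. The islet transcription factor genes have a median of 58.9 per Mb and the adhesion and synaptic genes of 11.6, against 28.0, and the lists overlap widely. The lists were written with earlier results of these data known.

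The central 400 bp of members were richer in G and C than unmarked eligible sequence. The median GC content was 44.5% in members, 42% in 740359 tiles of 400 bp from eligible sequence that no region touched, and 46.5% in distal regions between genes. Observed over expected CpG was 0.223 in members, 0.193 in tiles and 0.271 in regions between genes. No CpG was found in 5.71% of the windows of members and in 9.66% of tiles.

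Of 13 motifs searched on both strands in these windows, most were found more often in members than in tiles. The AP-1 site TGACTCA was in 10.7% of members (10.1 to 11.2) against 6.27% of tiles, and the FOXA core TGTTTAC in 9.38% (8.85 to 9.94) against 5.99%. The E-box CAGATGG, bound by factors such as NEUROD1, was in 11.2% against 8.01%, the MAF half-site TGCTGAC in 7.74% against 5.67%, and the HNF1 site GTTAATNAT in 1.99% against 1.39%. Less frequent were the RFX site GTTGCCATG, in 0.716% against 0.425%, and the STAT site TTCCNGGAA, in 1.60% (1.38 to 1.86) against 0.993%. The homeodomain core TAATTA was in 15.4% against 13.8%, and the Myc E-box CACGTG in 5.74% against 4.38%.

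For the remaining motifs the interval of the members contained the share of the tiles. This held for the NF-kB pattern GGGANTTTC (1.45%, 1.24 to 1.69, against 1.33%) and the IRF pattern GAAANNGAA (14.3%, 13.7 to 15.0, against 14.5%). It also held for the REST fragment TCAGCACCA (0.662% against 0.581%) and the CTCF fragment CAGGGGGCG (0.109% or 12 members, 0.0562 to 0.190, against 0.0739%). Distal regions between genes held the CTCF fragment in 0.434% (0.305 to 0.597), above the interval of the members, and the homeodomain core in 13.7% (13.0 to 14.5), below it. For the other 11 motifs the intervals of both overlapped. Within each of 4 classes of GC content from 35 to 55%, both intervals overlapped for the CTCF fragment and the homeodomain core. They did not overlap for the MAF half-site at 50 to 55% GC, in 11.5% of members against 8.27% of regions between genes. Nor did they for the AP-1 site at 35 to 40% GC, in 9.35% of members against 12.9% of regions between genes.

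Composition was then held within classes of GC content, a step added after these shares had been seen. In windows of 40 to 45% GC, the FOXA core was in 10.1% of members against 6.00% of tiles, the AP-1 site in 11.1% against 6.66% and the homeodomain core in 17.5% (16.2 to 18.8) against 12.1%. In each of 4 classes of 5% from 35 to 55% GC, these 3 motifs and the NEUROD E-box were found more often in members, with intervals above the share of the tiles. The interval was above the tiles in 3 of 4 classes for the MAF and HNF1 sites and in 2 for the Myc E-box. It was above them in 1 for the RFX and STAT sites and in 0 for NF-kB, REST and CTCF. The share itself was higher in members in all 4 classes for MAF, HNF1, Myc, RFX and STAT. For NF-kB, REST and CTCF it was higher in 2. The IRF pattern also varied between classes. It was in 17.96% (16.2 to 19.8) of members against 18.5% of tiles at 35 to 40% GC and in 16.1% (14.9 to 17.4) against 14.2% at 40 to 45%. At 45 to 50% it was in 12.2% (11.1 to 13.4) against 11.5%, and at 50 to 55% in 11.3% (9.77 to 12.9) against 8.87%. A match is a description of letters, and the factors that bind these windows were not measured.

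**Figure D5:**
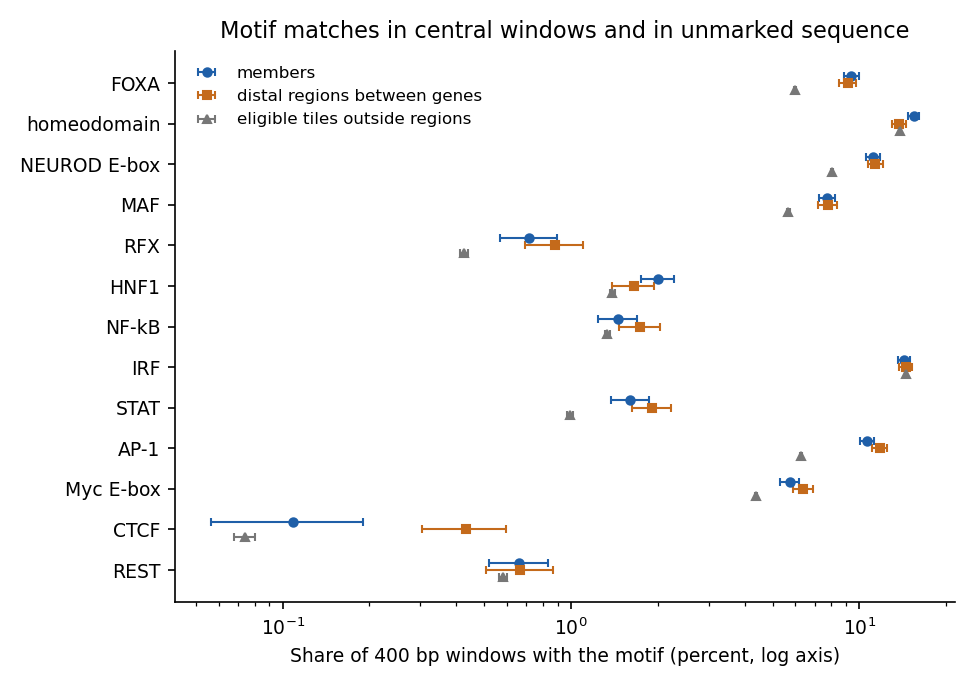
Share of 400 bp windows with each of 13 motifs, in percent on a log axis, for members (circles), distal regions between genes (squares) and eligible tiles outside regions (triangles), with 95% exact binomial intervals. FOXA and AP-1 are at 9.38% and 10.7% of members against 5.99% and 6.27% of tiles, whereas IRF is at 14.3% and 14.5%.

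Few members held the start of a non-coding gene. Such a start was found in 96 members (0.870%, 0.706 to 1.06) and in 182 distal regions between genes (2.13%, 1.84 to 2.46). Seen from the starts, regions covered 117 of the 1332 non-coding starts in eligible sequence (8.78%, 7.32 to 10.4), against 7.63% of the eligible sequence itself. The share was 19.2% (15.0 to 24.0) for processed transcripts and 16.4% for lincRNAs (10 of 61, 8.15 to 28.1), and 31.2% (25.9 to 37.0) for lincRNAs between genes. The intervals contained the covered share of the sequence for misc_RNAs (7.27%, 2.02 to 17.6), snoRNAs (6.20%, 2.72 to 11.9), pseudogenes (5.29%, 3.26 to 8.05) and snRNAs (5%, 2.03 to 10.03), and lay below it for rRNAs (0 of 95, with an upper bound of 3.81%).

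The start of a miRNA gene lay in 7 members. Regions of any class covered 8 of the 162 such starts in eligible sequence (4.94%, 2.16 to 9.50), a share whose interval contains the 7.63% of the sequence itself. Mir340 was within the 33.2 kb member of Rnf130, a ubiquitin ligase gene whose eligible sequence was 93.0% covered, Mir874 within a 3000 bp member of Klhl3, and Mir1943 within a 2000 bp member of Tmem184b. Mature sequences of 2 of the 7 were found in RefSeq (GRCm38.p6) and are shown with the seed, bases 2 to 8, in capitals, because the seed decides which transcripts a miRNA pairs with; the 4 seeds differ.
mmu-miR-340-5p: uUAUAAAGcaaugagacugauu
mmu-miR-340-3p: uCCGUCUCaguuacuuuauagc
mmu-miR-1943-5p: aAGGGAGGaucugggcaccugga
mmu-miR-1943-3p: cAGGUGCCagcuccucccuuc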

How the data were processed

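H3K4me1 ChIP-seq reads of 1 library of cytokine treated islets were mapped to mm9 with Bowtie2 by the authors, who called enriched regions with ChromHMM; the settings are not given in the sources used here. The submitters' processing notes give version 2.2.1. The deposited file holds positions alone (chromosome, start and end), which fall on a 200 bp grid, with no score. RNA-seq values and untreated regions were not analysed here.

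Regions were classified against protein-coding genes and all their transcript starts in GENCODE M1 (same build). A region with a midpoint in several genes was given 1 host. A host and a nearest start were matched by symbol instead of gene ID, a change made after the first value was seen. Densities have 95% exact Poisson and shares 95% exact Clopper-Pearson intervals. The members and lists were chosen with earlier results of these data known, and the motifs were written after the files were at hand. Named genes were the 20 hosts with the most members, in each list the 4 with the most members and up to 3 with at least 100 kb eligible and the fewest, the hosts of the 6 widest members, the 6 with the largest covered share and the 4 longest with at least 300 kb eligible and 0 members; 1 gene under this rule is not reported here. Foxn3, Rnf130, Klhl3, Tmem184b, Cpe, Rapgef4 and Foxo1 were added by other results. The sequences are of hosts in the lists, up to 2 a list. Motif windows were the central 400 bp, on both strands, and motifs can overlap; 4 of the 65124 windows passed a chromosome end and were left out. Steps were tested on simulated regions and planted motifs. The tools were scipy 1.17.1, pandas 2.3.3, matplotlib 3.10.9, numpy 2.4.6, samtools and Python 3.11.15.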

Additional observations from a re-analysis of the deposited data

How the results depend on the processing

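No paired analysis was possible because a single ChIP library was analysed, and no replicate could be left out. A value counted as moved when it left the interval of its main value, or, for counts, 1.5 times. By this rule 108 of 146 values under an alternative did not move, among them the counts of hosting genes of every list. The limit for counts is wide. With 39 insulin secretion genes listed, for example, the upper limit of 45 could not be reached. The starts of protein_coding transcripts alone and the left-out spans of Gm20388 and Arfip1 were added after the data were seen; without these spans the 8 values tried did not move.

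Members per Mb were 32.8 with regions of at least 400 bp, 22.0 with at least 1000 bp, 32.4 with gaps of up to 1000 bp merged, 32.5 by the nearest edge, 32.02 with starts of all transcripts, 37.2 with the outermost starts, 34.5 with starts of protein_coding transcripts and 32.4 with chromosome X. The share of regions was 16.3% by the nearest edge, 15.7% with all starts, 21.7% with outermost starts, 19.3% with protein_coding transcripts and 13.1% with genes of at least 100 kb. Members numbered 7182 at 1000 bp or more, and hosts 1691 with genes of at least 100 kb. The median width was 1400 bp with at least 400 bp, merged or by outermost starts, and 2000 bp with at least 1000 bp. The share in introns was 98.3% with genes of at least 100 kb, 94.9% with outermost starts, 97.4% with all starts and 96.0% with protein_coding transcripts. The nearest start was the host's in 84.1%, 70.3%, 64.2% and 79.3% under these settings. A non-coding start was held by 1.23% with outermost starts, 1.24% at 1000 bp or more and 0% with all starts, where the rule removes such regions. In the central 1000 bp, median GC was 44%, and the ratio of members to tiles was 1.51 for AP-1, 1.40 for FOXA, 1.28 for MAF, 1.29 for NEUROD and 1.05 for the homeodomain core; AP-1 was 1.59 in members of at least 1000 bp and REST 0.883 in the central 200 bp. The cause was not tested. The share of masked repeats was not run, since the reference used is unmasked.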
